A study of Homo sapiens with 6 samples.

Results

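The EGF receptor system is described here through 10 genes of SZ95 sebocytes, chosen by symbol with earlier results of these data known. They are the ligands AREG, EREG, HBEGF, TGFA and BTC, the receptors EGFR, ERBB2 and ERBB3, the shedding protease ADAM17 and the feedback inhibitor ERRFI1. All 10 symbols were found, each as 1 row, among the 58735 genes of the table, and all 10 reached a mean of 1 FPKM over the 6 libraries, as did 12177 genes in all. FPKM counts fragments relative to a gene's length and to the depth of the library. SZ95 is an established line of human sebaceous gland cells. In the labels, the 3 mock libraries have the genotype WT and were transfected with a mock plasmid, and the 3 TRPV3 libraries have the genotype TRPV3 overexpression and were transfected with a plasmid that overexpresses TRPV3, a calcium-permeable cation channel; both groups carry the time 24 h. The question named by the design text is what TRPV3 does in inflammation of these cells, and the replicates are stated to be biological. Neither the promoter of the plasmid nor the share of cells that took it up is given in the sources used here.

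EGF-family ligands are made as membrane-anchored precursors, which proteases such as ADAM17 cut at the cell surface. The released ligand binds EGFR, which pairs with itself or with ERBB2 or ERBB3 and signals through the RAS-ERK and PI3K pathways. ERBB2 has no known soluble ligand of its own, ERBB3 has little kinase activity of its own, and ERRFI1 (also called MIG6) is induced by the signal and binds the kinase domain to shut it down. In skin epithelium this system is known for its part in growth, wound repair and inflammation.

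Before the results, the libraries were compared. TRPV3 had 57 to 75 reads in the mock libraries and 92523 to 126249 in the TRPV3 libraries. Library totals ran from 16.0 to 18.4 M recovered reads. TRPV3 replicate 1 stood apart by gene length: against the mean of TRPV3 replicates 2 and 3, its log2(FPKM + 1) values were higher by a median of 0.39 in genes of 1 to 2 kb and had a median difference of -0.30 in genes over 8 kb. Mock replicate 3 had reads in 34467 genes, against 22311 to 23072 in the other 5 libraries. Of the sebocyte markers, KRT7 (513 ± 15.4 FPKM in the mock group, SD, n = 3), SCD and FASN were abundant, whereas the melanocortin receptor MC5R and the wax synthases AWAT1 and AWAT2 were at or near 0. PRDM1 and CIDEA were also under 1 FPKM, so that 9 of the 14 sebocyte markers reached that mean. PPARG, SOX9, MUC1 and FADS2 had mock means of 7.28 to 21.5 FPKM, and PLIN2 and ELOVL3 were lower, at 1.62 and 1.09 FPKM. Markers of other cell types stayed low in sum: 2.11 to 3.05 FPKM per library for 7 fibroblast genes, 1.19 to 1.82 for 7 immune genes, 1.41 to 1.91 for 4 endothelial genes and 0.929 to 1.24 for 4 melanocyte genes. Keratinocyte markers summed to 180 to 216 FPKM in mock and 189 to 196 FPKM in TRPV3 libraries, with LOR at 0 in every library. KRT5 was the highest of them (160 ± 15.1 and 149 ± 5.24 FPKM in the mock and TRPV3 groups), followed by DSG3 and KRT10. KRT14 and TP63 were low, with mock means of 0.859 and 0.400 FPKM. KRT10 (16.0 ± 2.58 and 19.9 ± 1.06 FPKM) was higher in every TRPV3 library and did not pass the adjusted test (log2 fold change 0.30, adjusted p = 0.755 by limma). The same held for the sebocyte marker SOX9 (13.3 ± 0.884 and 16.9 ± 1.28 FPKM, log2 fold change 0.33, adjusted p = 0.755 by limma). Of all tested genes, 9.49% were higher in every TRPV3 library. The fibroblast marker COL1A1 (2.49 ± 0.249 and 2.09 ± 0.0652 FPKM) was lower in every TRPV3 library, as were 5.39% of tested genes. The part of these markers in the results was not tested.

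With all 6 libraries, 0 of the 10 genes passed limma's adjusted p threshold of 0.05, where 5 of 12177 tested genes passed (0.0411%). All 5 ligands had a log2 fold change above 0, where 53% of tested genes did. All 3 receptors had one below 0 with all libraries, but EGFR was at 0.08 without TRPV3 replicate 1, so that its side rested on that library. In AREG, EREG and HBEGF every TRPV3 library was above every mock library, as in 9.49% of tested genes, and in ERBB2 and ERBB3 every TRPV3 library was below every mock library, as in 5.39%. An unadjusted limma p under 0.05 was reached by 4 of the 10 genes, where 4.48% of tested genes reached it: 3 ligands were higher (3.28% of tested genes were) and 1 receptor was lower (1.21%). EGFR itself, ADAM17 and ERRFI1 overlapped between the groups. In bulk RNA such as this, a change in the number of cells that make a transcript and a change in transcript per cell cannot be told apart.

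**Figure D1:**
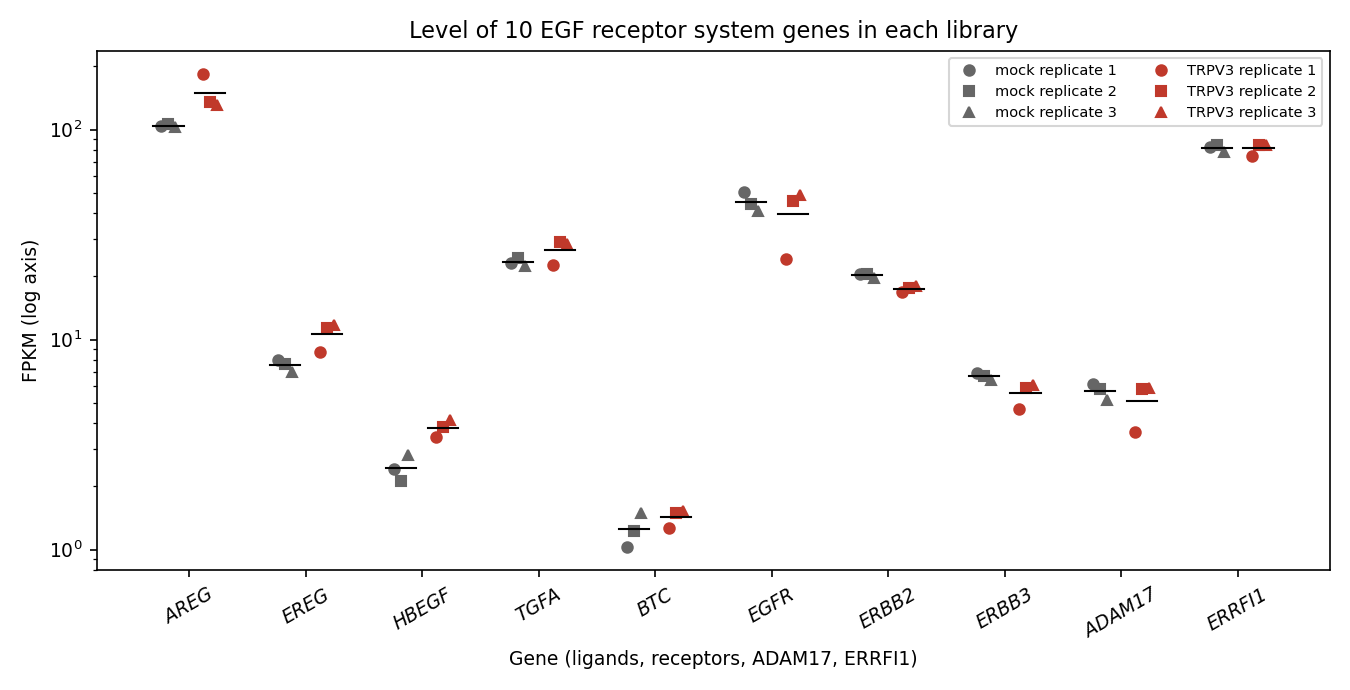
FPKM (log axis) of each of the 10 genes in the 3 mock libraries (grey) and the 3 TRPV3 libraries (red), with a bar at each group's mean. AREG, EREG and HBEGF are higher in all 3 TRPV3 libraries, ERBB2 and ERBB3 are lower, and TRPV3 replicate 1 (red circle) lies below the other TRPV3 libraries in every gene but AREG.

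AREG, EREG and HBEGF are the ligands whose groups did not overlap, so their upstream sequences are shown together. They are taken from RefSeq (GRCh38.p14; 9 of the 10 genes matched, all but ERBB3), 5′ to 3′ on the gene's own strand, and end at the base before the gene's most upstream exon in GENCODE 29. The windows are chr4:74444886-74445133 (plus strand) for AREG, chr4:74364895-74365142 (plus strand) for EREG and chr5:140346632-140346853 (minus strand) for HBEGF. Capitals mark matches to the motifs searched.
AREG: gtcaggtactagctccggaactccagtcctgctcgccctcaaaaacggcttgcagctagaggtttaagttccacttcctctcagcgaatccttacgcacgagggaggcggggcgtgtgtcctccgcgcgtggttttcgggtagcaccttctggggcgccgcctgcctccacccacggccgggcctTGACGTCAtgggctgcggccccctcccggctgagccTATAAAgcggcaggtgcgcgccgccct
EREG: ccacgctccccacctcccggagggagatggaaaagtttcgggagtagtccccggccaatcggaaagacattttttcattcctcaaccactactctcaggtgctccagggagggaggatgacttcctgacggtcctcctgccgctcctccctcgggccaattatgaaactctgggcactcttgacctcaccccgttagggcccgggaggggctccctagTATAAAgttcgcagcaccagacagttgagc
HBEGF: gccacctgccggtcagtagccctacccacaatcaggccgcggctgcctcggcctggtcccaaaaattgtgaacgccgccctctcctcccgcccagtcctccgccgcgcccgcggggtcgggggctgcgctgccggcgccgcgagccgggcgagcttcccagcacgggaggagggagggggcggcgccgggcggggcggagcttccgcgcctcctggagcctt
The AREG window holds the cAMP response element TGACGTCA, beginning 65 bases before the RefSeq start, and TATAAA 29 bases before it. The EREG window holds TATAAA 32 bases before the RefSeq start, and the HBEGF window has no match. The full set of motifs searched was TGACGTCA, the AP-1 motif TGANTCA, the NF-kB consensus and the CArG box of the serum response element, on both strands, and TATAAA on the gene's strand; TGACGTCA does not itself contain TGANTCA. Among 35116 RefSeq promoters cut to 250 bases upstream, TGACGTCA was found in 1.65%, TGANTCA in 6.57%, TATAAA in 6.8%, the NF-kB consensus in 9.96% and the CArG box in 1.16%. Of the other matched genes, EGFR held TATAAA and TGANTCA and ERBB2 held TGANTCA in that window. TGFA, BTC and ADAM17 held the NF-kB consensus, and ERRFI1 held no match. These matches are descriptions of letters, with no measurement of binding in the series.

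Amphiregulin, encoded by AREG (ENSG00000109321, chromosome 4, 74445134 to 74455009, plus strand, hg38), was the most abundant ligand by far. It was at 104, 107 and 103 FPKM in mock replicates 1 to 3 and at 183, 135 and 131 FPKM in TRPV3 replicates 1 to 3. The mock libraries were thus within a narrow band (104 ± 1.91 FPKM, SD, n = 3), and the TRPV3 libraries (150 ± 29.1 FPKM) were all above it, with replicate 1 the highest. The log2 fold change of FPKM + 1 was 0.50 ± 0.14 (SE; adjusted p = 0.755 by limma), a 1.43-fold ratio of group means that was 1.27 without TRPV3 replicate 1. At 1648 bases AREG is the shortest of the 10 genes, in the range of lengths where TRPV3 replicate 1 read high.

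Epiregulin, encoded by EREG (ENSG00000124882, chromosome 4, 74365143 to 74388751, plus strand), binds EGFR and ERBB4. Its levels were 7.96, 7.68 and 7.0 FPKM in mock replicates 1 to 3 and 8.69, 11.3 and 11.8 FPKM in TRPV3 replicates 1 to 3. All TRPV3 libraries were above all mock libraries, but replicate 1 only slightly so, and under TPM scaling the groups overlapped. The log2 fold change was 0.43 ± 0.12 (SE; adjusted p = 0.755 by limma), and the ratio of means was 1.40-fold with all libraries and 1.53-fold without TRPV3 replicate 1.

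Heparin-binding EGF, encoded by HBEGF (ENSG00000113070, chromosome 5, 140332843 to 140346631, minus strand), had the smallest adjusted p of the 10 genes (0.547 by limma). It was at 2.41, 2.12 and 2.82 FPKM in the mock libraries and 3.46, 3.85 and 4.13 FPKM in the TRPV3 libraries. The groups were separate and TRPV3 replicate 1 was close to the others of its group, so the log2 fold change of 0.48 (SE 0.11) was 0.54 without that library. These levels rest on 104 to 218 reads per library, so counting error alone is larger here than for AREG, with 2849 to 5326 reads.

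Transforming growth factor alpha, encoded by TGFA (ENSG00000163235, chromosome 2, 70447280 to 70554193, minus strand), is a ligand of EGFR. Mock replicates 1 to 3 had 23.3, 24.5 and 22.4 FPKM and TRPV3 replicates 1 to 3 had 22.6, 29.2 and 28.6 FPKM. TRPV3 replicates 2 and 3 were above every mock library and replicate 1 was inside the mock range. The log2 fold change was 0.18 (95% interval -0.08 to 0.44) with all libraries and 0.30 without TRPV3 replicate 1.

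Betacellulin, encoded by BTC (ENSG00000174808, chromosome 4, 74744759 to 74794686, minus strand), which binds EGFR and ERBB4, was the lowest of the 10. The mock libraries had 1.03, 1.23 and 1.501 FPKM and the TRPV3 libraries 1.27, 1.49 and 1.52 FPKM, on 51 to 77 reads each. The groups overlapped, and the 95% interval of the log2 fold change, -0.15 to 0.38, covers both no change and a 1.30-fold higher level on the FPKM + 1 scale.

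The 5 ligands summed to 139, 142 and 137 FPKM in mock replicates 1 to 3 and 219, 181 and 177 FPKM in TRPV3 replicates 1 to 3. AREG made up from 75% to 75.3% of that sum in the mock libraries and 83.6%, 74.6% and 74.0% in TRPV3 replicates 1 to 3, so its share stood out in TRPV3 replicate 1 alone. Without AREG the sum was 33.7 to 35.5 FPKM in the mock libraries and 36.0, 45.9 and 46.0 FPKM in TRPV3 replicates 1 to 3. Divided by the FPKM of their receptor EGFR, the ligand sum was 2.76, 3.22 and 3.34 in mock replicates 1 to 3 and 9.09, 3.94 and 3.61 in TRPV3 replicates 1 to 3. The groups were separate in this ratio, by little apart from replicate 1, in which AREG was highest and EGFR lowest.

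**Figure D2:**
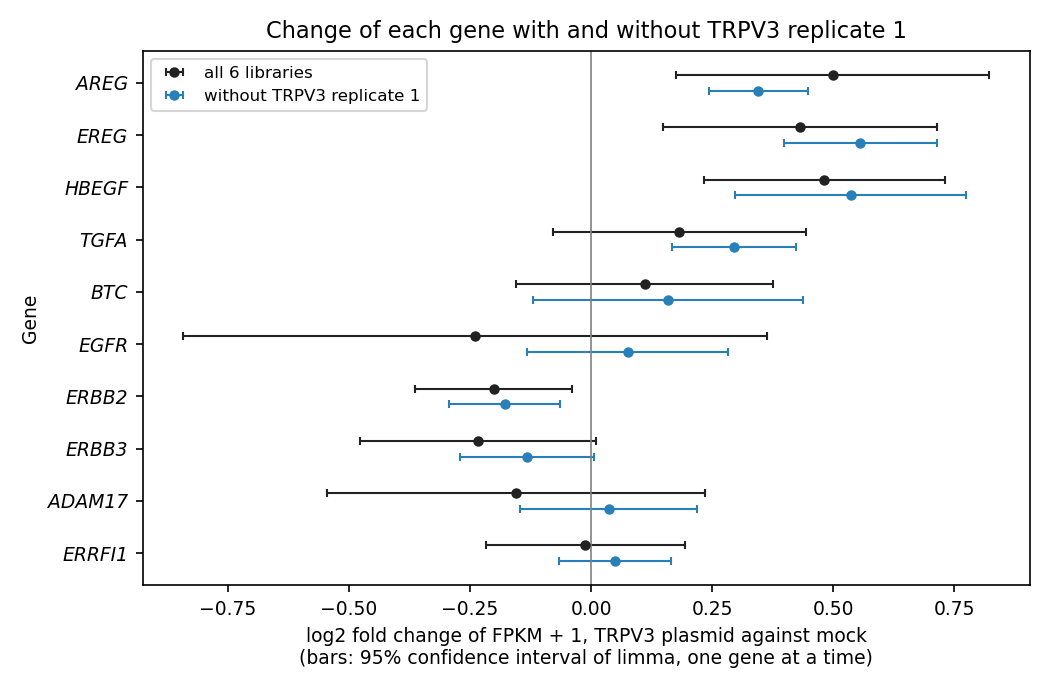
Fitted log2 fold change of FPKM + 1, TRPV3 plasmid against mock, with limma's 95% confidence interval for each gene taken alone, for all 6 libraries (black) and without TRPV3 replicate 1 (blue). The intervals of AREG, EREG and HBEGF lie above 0 in both fits and that of ERBB2 below 0. That of TGFA lies above 0 only without TRPV3 replicate 1. The point estimates of EGFR, ADAM17 and ERRFI1 move from below to above 0, with intervals that include 0 in both fits.

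Among the receptors, EGFR (ENSG00000146648, chromosome 7, 55019021 to 55211628, plus strand), the receptor for all 5 ligands, varied most. It was at 50.2, 44.1 and 40.9 FPKM in the mock libraries and at 24.1, 45.8 and 49.0 FPKM in the TRPV3 libraries. TRPV3 replicate 1 had 0.509 times the mean of TRPV3 replicates 2 and 3, which themselves were inside the mock range. The log2 fold change of -0.24 (95% interval -0.84 to 0.36) was accordingly 0.08 without that library. The TRPV3 libraries had a coefficient of variation of 34.1%, the highest of the 10 genes in either group.

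ERBB2 (ENSG00000141736, chromosome 17, 39687914 to 39730426, plus strand), the preferred partner of the other ERBB receptors, was the least variable. The mock libraries had 20.5, 20.5 and 19.6 FPKM and the TRPV3 libraries 16.9, 17.5 and 17.9 FPKM. Every TRPV3 library was lower, with coefficients of variation of 2.54% and 3.09%. The log2 fold change was -0.20 ± 0.07 (SE; adjusted p = 0.755 by limma), and -0.18 without TRPV3 replicate 1. Part of ERBB2 is shared with genes on the opposite strand, 571 exonic bases with MIEN1 (439 to 662 reads) and 194 with PGAP3 (197 to 257 reads), against at most 3710 reads of ERBB2.

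ERBB3 (ENSG00000065361, chromosome 12, 56076799 to 56103505, plus strand), the neuregulin receptor that couples strongly to PI3K, was also lower in every TRPV3 library. Its levels were 6.92, 6.67 and 6.45 FPKM in the mock libraries and 4.67, 5.91 and 6.11 FPKM in the TRPV3 libraries. Replicate 1 was again the lowest, and the log2 fold change of -0.23 ± 0.10 (SE; adjusted p = 0.755 by limma) was -0.13 without it. The ratio of group means was 0.833 with all libraries and 0.899 without that library.

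ADAM17 (ENSG00000151694, chromosome 2, 9488486 to 9556732, minus strand), the main protease that releases AREG, EREG, HBEGF and TGFA, was at 6.12, 5.83 and 5.14 FPKM in the mock libraries and at 3.61, 5.84 and 5.86 FPKM in the TRPV3 libraries. The groups overlapped, and only TRPV3 replicate 1 was outside the mock range. Its log2 fold change was -0.15 (95% interval -0.54 to 0.24), or 0.04 without that library. Of its exonic bases 1323 are shared with IAH1 on the opposite strand, which had 645 to 942 reads against 685 to 1156 of ADAM17, so the level of ADAM17 is uncertain. These values are of transcript, and the activity of the protease was not measured.

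ERRFI1 (ENSG00000116285, chromosome 1, 8004404 to 8026308, minus strand), the feedback inhibitor, was abundant and nearly level. It was at 82.7, 84.9 and 78.6 FPKM in the mock libraries and 74.6, 84.9 and 84.9 FPKM in the TRPV3 libraries. The 95% interval of its log2 fold change, -0.22 to 0.19, bounds a change to between 0.86 and 1.14 times on the FPKM + 1 scale. This is the interval of 1 gene with 3 libraries a group, and does not show that the level was the same.

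By mean FPKM over all libraries, the 10 genes ranked in the order AREG (127), ERRFI1 (81.8), EGFR (42.4), TGFA (25.1), ERBB2 (18.8), EREG (9.07), ERBB3 (6.12), ADAM17 (5.40), HBEGF (3.13) and BTC (1.34). Ranges over libraries overlapped for 3 neighbouring pairs in this order, EGFR with TGFA, ERBB3 with ADAM17 and ADAM17 with HBEGF, although the first of each pair was higher within all 6 libraries. FPKM divides by all annotated exon bases of a gene. With division instead by the transcript with the longest coding sequence, the mean of TGFA was 126, above ERRFI1 (110.3), EGFR (54.0) and ERBB2 (42.7). All reads of each gene were kept, also those from exon bases outside that transcript, which for TGFA has 985 of 4963 bases. These values can therefore be too high for that transcript, and show only that the order depends on the length used. None of the 5 ligands shares exonic bases with another gene in GENCODE 29, and EGFR shares 186 with EGFR-AS1, which had 2 to 19 reads.

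Gene length went together with the deviation of TRPV3 replicate 1 in these genes. On the log2(FPKM + 1) scale that library differed from the mean of the other TRPV3 libraries by 0.46 in AREG, where 682 tested genes of like length (within 1.2-fold) had a median of 0.39. In EGFR, of 12521 bases, it differed by -0.95, where 772 genes of like length had a median of -0.34 and a lower quartile of -0.55. EREG (-0.37), HBEGF (-0.16), TGFA (-0.34), BTC (-0.14), ADAM17 (-0.57) and ERRFI1 (-0.18) were also below the median of genes of their length, ERBB3 (-0.31) was near its median of -0.23, and ERBB2 (-0.07) was above its median of -0.28. After a length trend was removed from each library, the log2 fold changes were 0.36 for AREG, 0.45 for EREG and 0.40 for HBEGF, with the groups still separate (8.27% of tested genes then had every TRPV3 library above), and -0.11 for ERBB2, with the groups overlapping. ERBB3 was then the single gene of the 10 with every TRPV3 library below, as were 7.31% of tested genes. The part that length plays in the group differences was not tested beyond this.

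**Figure D3:**
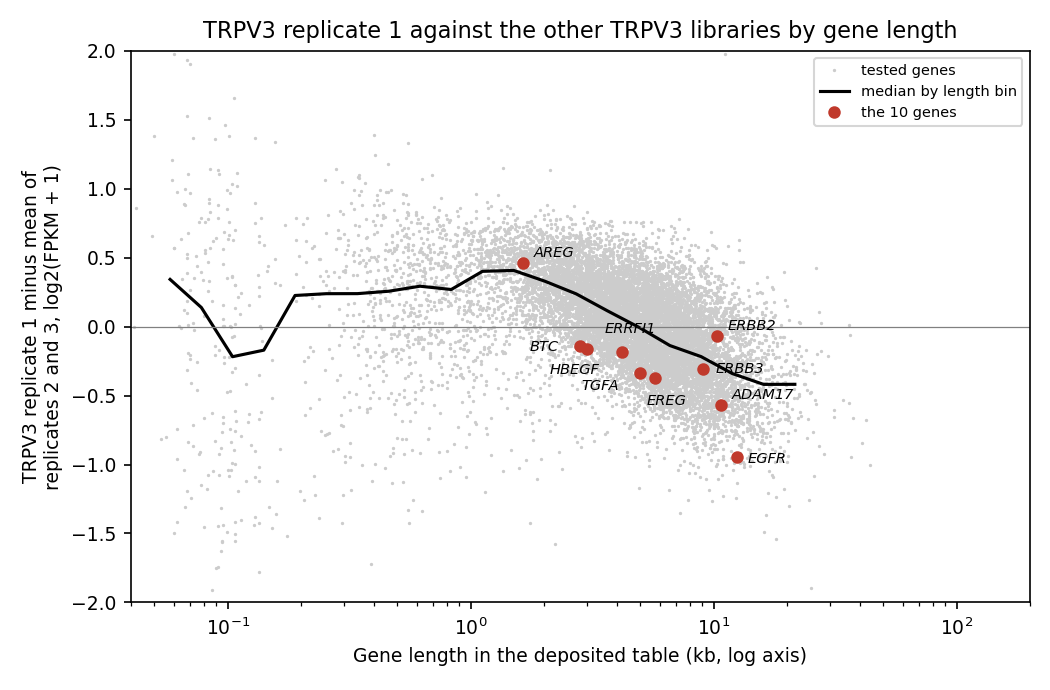
Difference of TRPV3 replicate 1 from the mean of TRPV3 replicates 2 and 3, in log2(FPKM + 1), against gene length (kb, log axis) for the tested genes (grey; 8 points lie outside the vertical range and 2 outside the horizontal range), their median by length bin (black line, bins of at least 20 genes) and the 10 genes (red). AREG lies near the line at 0.46 and EGFR lies well under it at -0.95.

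Without TRPV3 replicate 1, AREG, EREG, HBEGF and TGFA came nearer to the threshold and BTC did not (log2 fold change 0.16, adjusted p = 0.832 by limma, against 0.76 with all libraries). By limma on log2(FPKM + 1), the adjusted p was 0.0673 for AREG (log2 fold change 0.35), 0.0611 for EREG (0.56), 0.178 for TGFA (0.30) and 0.192 for HBEGF (0.54), and 0 of the 10 genes passed, where 8 of 12177 did (0.0657%). Every remaining TRPV3 library was above every mock library in AREG, EREG, HBEGF and TGFA, and barely so in ERRFI1 (lowest 84.8647 against highest 84.8603 FPKM). That is 5 of the 10 genes, where 14.1% of tested genes did so. Every remaining TRPV3 library was below every mock library in ERBB2 and ERBB3 (10.1% of tested genes). By limma-voom on the whole reads recovered from the table, also without that library, 3 of the 10 genes passed and all 3 were ligands that rose: EREG (log2 fold change 0.59, SE 0.07, adjusted p = 0.000603), AREG (0.32, SE 0.05, adjusted p = 0.00565) and TGFA (0.28, SE 0.06, adjusted p = 0.0309). In that fit 66 of 12177 genes passed (0.542%), 61 of them higher (0.501%). HBEGF had an adjusted p of 0.0542 (log2 fold change 0.67) and ERBB2 one of 0.0857 (-0.22). With all 6 libraries, voom passed 0 of the 10 genes and 5 of 12177 (0.0411%). TRPV3 replicate 1 was the only library left out under voom, so there is no like fit for the other libraries.

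Of the other EGF-family genes, epigen was the single one past 1 FPKM. EPGN, whose gene lies between the chemokine cluster and EREG on chromosome 4, was at 19.4 ± 2.12 FPKM in the mock and 20.8 ± 3.91 FPKM in the TRPV3 group (SD, n = 3), or 0.09 ± 0.15 as a log2 fold change (SE; adjusted p = 0.831 by limma), which was 0.24 when TRPV3 replicate 1 was left out and -0.04 after removal of the length trend. EGF, NRG1, NRG2, NRG3, NRG4 and the receptor ERBB4 were under that level. NRG4 was the highest of them, with means of 0.313 and 0.334 FPKM in the mock and TRPV3 groups, and ERBB4 had no read in any TRPV3 library, so that a change of ERBB4 was not detectable at this depth.

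EREG, AREG and BTC lie within 430 kb of each other on chromosome 4, with EPGN beside them. Of 11 tested genes whose start is within 1000 kb of that of AREG, 6 had every TRPV3 library above every mock library and 0 had every one below, where 9.49% and 5.39% of all tested genes did. Beside AREG and EREG these were the neutrophil chemokines CXCL8, CXCL1, CXCL3 and CXCL2, named after their values were seen, of which CXCL8 passed the adjusted test. The separation was not shared by all neighbours, since EPGN, BTC, CXCL6, MTHFD2L and LINC02562 overlapped between the groups. The window was chosen with the chemokine values known, and no test was made of it.

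**Figure D4:**
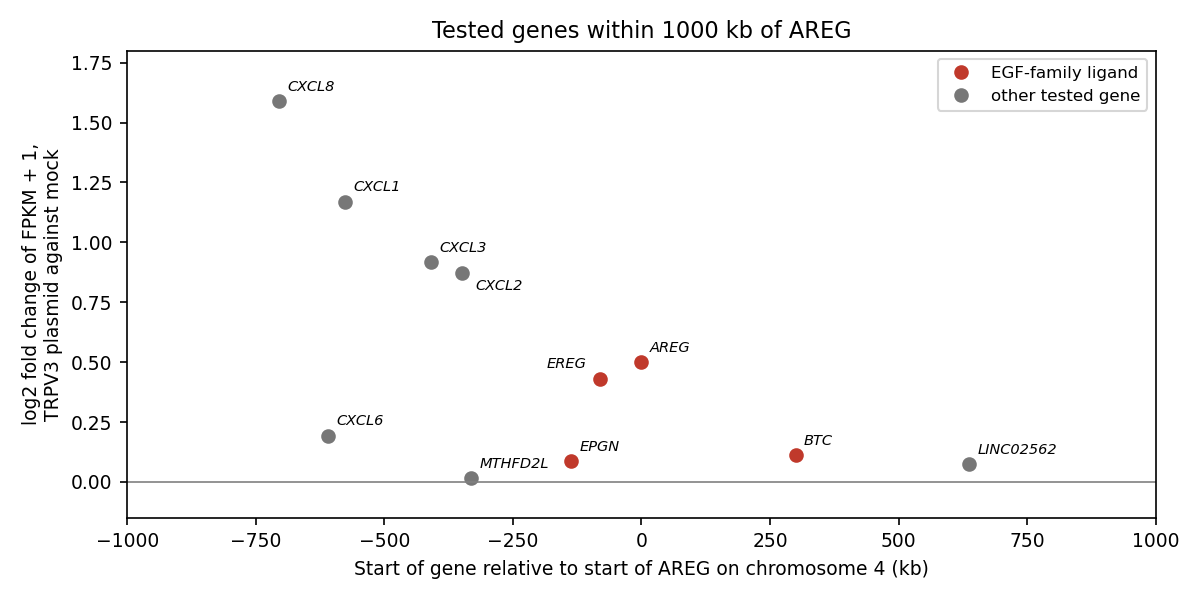
Log2 fold change of FPKM + 1, TRPV3 plasmid against mock, of the 11 tested genes within 1000 kb of AREG, by the distance of their start from that of AREG (kb). The log2 fold changes of EREG (0.43) and AREG (0.50) are lower than those of CXCL8, CXCL1, CXCL3 and CXCL2. They are higher than those of CXCL6 (0.19), EPGN (0.09) and BTC (0.11).

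Of the genes that work around the receptors, none in these lists passed the limma test with all 6 libraries. Of 13 measured sheddases and shedding regulators other than ADAM17, 1 was separate in each direction, near the 9.49% (above) and 5.39% (below) of all tested genes. By the naming rule these were ADAM8 and FRMD8: ADAM8, a metalloprotease of the cell surface, was at 46.2 ± 2.98 and 53.4 ± 1.31 FPKM, and FRMD8, a partner of the iRhoms that carry ADAM17 to the surface, at 22.7 ± 1.22 and 20.2 ± 0.835 FPKM (mock and TRPV3 means, SD, n = 3). The median log2 fold change of that list was -0.03, against 0.01 over all tested genes, and was 0.02 when TRPV3 replicate 1 was left out. Of 18 measured genes of receptor control and trafficking 0 passed, 4 were above 0 (53% of all tested genes were) and the median was -0.05. This turned without TRPV3 replicate 1, where 13 of the 18 were above 0 and the median was 0.04; with the length trend removed 9 were. SH3KBP1, an adaptor of receptor uptake, was the one with separate groups, at 18.9 ± 1.15 and 22.0 ± 0.253 FPKM (1 of 18 genes, where 9.49% of all tested genes were above). Of 26 measured adaptors and kinases of the RAS-ERK and PI3K pathways 0 passed, 7 were above 0 (53% of all tested genes were), the median was -0.12 and 3 had every TRPV3 library below (5.39% of all tested genes did), among them the scaffold KSR1 (5.18 ± 0.225 and 4.10 ± 0.933 FPKM) and the kinase SRC (18.3 ± 0.745 and 16.3 ± 1.56 FPKM). The size of this rested on TRPV3 replicate 1: without it 12 of the 26 were above 0, the median was -0.023, and the log2 fold changes of KSR1 and SRC were -0.13 and -0.078 in place of -0.29 and -0.16. After removal of the length trend the median was -0.035.

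Genes known as outputs or feedback regulators of ERK were mostly above their mock levels. Of 18 measured, 16 had a log2 fold change above 0 and 12 had every TRPV3 library above every mock library, where 9.49% of tested genes did; 8 had an unadjusted limma p under 0.05, all higher, where 3.28% of tested genes did, and 0 passed the adjusted test. The list median was 0.17, where that of all tested genes was 0.01; under TPM scaling these were 0.09 and -0.07, so the list and all genes moved down together. FOSL1, a subunit of AP-1, had a log2 fold change of 0.78 ± 0.08 (SE; adjusted p = 0.0605 by limma). DUSP5, a phosphatase of ERK, was at 15.7 ± 0.154 FPKM in the mock and 21.1 ± 1.25 FPKM in the TRPV3 group, and its log2 fold change was 0.40 ± 0.07 (SE; adjusted p = 0.374 by limma). Without TRPV3 replicate 1, FOSL1 rose by limma on log2(FPKM + 1) (0.74, adjusted p = 0.0114). By voom without that library FOSL1, DUSP5, the urokinase receptor gene PLAUR and the receptor control gene SOCS3 rose, the last 2 named after their values were seen (adjusted p = 0.0197 for PLAUR and 0.0255 for SOCS3). The list was chosen with earlier results of these data known, those for FOSL1 and DUSP5 among them. Its counts beside the shares of all tested genes are therefore a description and not independent of these data.

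**Figure D5:**
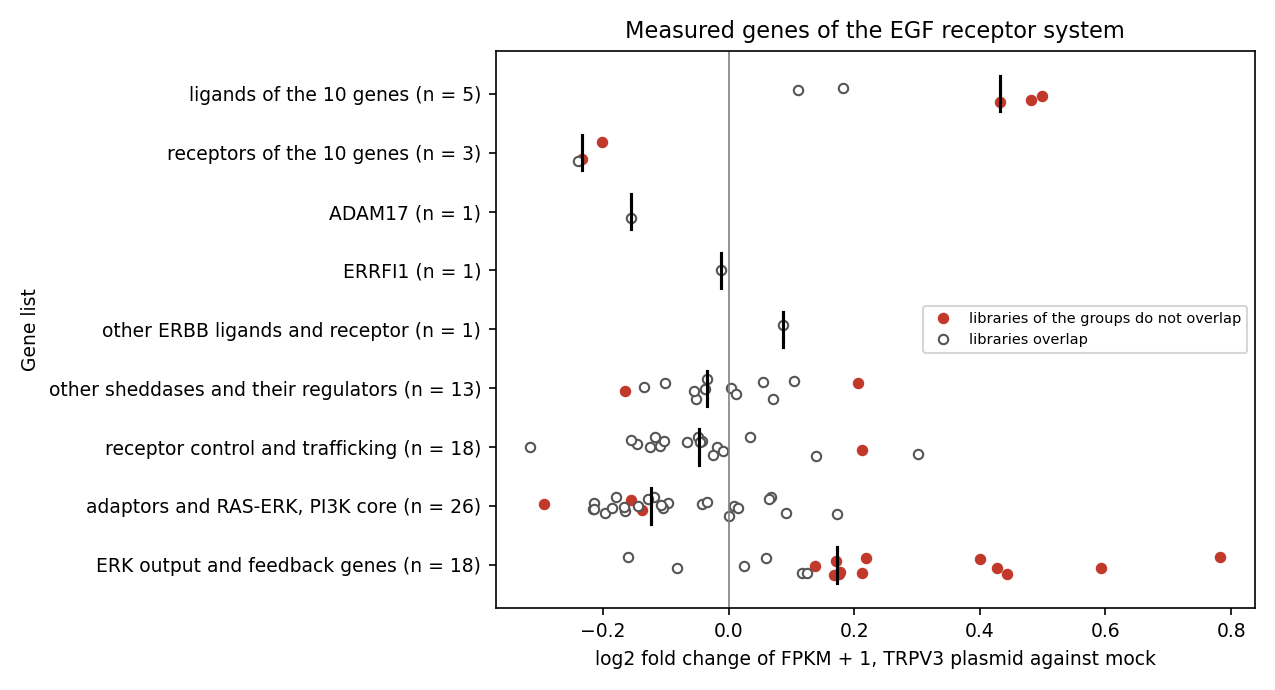
Log2 fold change of FPKM + 1, TRPV3 plasmid against mock, of every measured gene of the ligand, receptor and surrounding gene lists, with the list median as a black line and filled points where the libraries of the groups do not overlap. The ERK output list has 12 of 18 filled points, all above 0, and the adaptor list lies mostly below 0, with 7 of 26 points above it (12 of 26 without TRPV3 replicate 1).

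The 4 tested genes whose 6 values, each centred on its own mock mean, were closest to those of AREG were KRT17, RPS10P3, MANF and CDKN2D. Their root mean square distances were 0.051, 0.053, 0.057 and 0.059 on the log2 scale. Their lengths were 3130, 494, 2383 and 1503 bases, all in the range of lengths where TRPV3 replicate 1 read high. The part of length in this likeness was not tested. KRT17, a keratin of stressed and appendage epithelium, had group means of 125 (mock) and 173 FPKM (TRPV3), and MANF, a secreted protein of endoplasmic reticulum stress, had 23.0 and 33.8 FPKM. RPS10P3 is by its name a ribosomal protein pseudogene, so its reads cannot be divided from those of its parent gene with certainty. AREG was chosen as the most abundant ligand and as the one with the largest log2 fold change of FPKM + 1. The second of these depends on the scale, since HBEGF was above AREG with a pseudocount of 0.1 (0.62 against 0.502) and by voom (0.59 against 0.45), and EREG and HBEGF were above it without TRPV3 replicate 1 (0.56 and 0.54 against 0.35).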

How the data were processed

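RNA of 6 libraries was extracted with TRIzol and made into libraries with a NEBNext Ultra kit, per the labels' protocols. Reads were aligned with HISAT2 2.0.5 to hg38, per the submitters' processing notes. The sources used here give neither the counting tool nor its strand setting. The deposited values are FPKM per gene, per the file headers, and gene coordinates and lengths of the 10 genes equalled those of GENCODE 29. Multiplied by gene length, 100% of FPKM values were whole multiples of 1 step per library within 0.02 reads, which gave back the reads. The library depth implied by that step differed from the recovered total by 4.78% in mock replicate 3 and -3.93% in TRPV3 replicate 1. In the other libraries it differed by 0.02% to 1.33%. The reason was not tested. A count of 0 allows up to 3 reads, or 0.165 to 0.185 FPKM at 1 kb (counting error only).

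Values were analysed as log2(FPKM + 1), which understates changes of low genes. Genes whose mean reached 1 FPKM were tested with limma 3.58.1 in R 4.3.3 (group as the only term, mean-variance trend, Benjamini-Hochberg over all 12177 genes, threshold 0.05). The fit was also run on simulated data with a common spread, taken from the mock libraries, and no length trend. That run does not show what the fit can detect at the spread of the TRPV3 libraries. Fold changes are TRPV3 plasmid against mock. Alternatives were another pseudocount (0.1), no filter or one of 5 FPKM, TPM scaling, quantile normalization and no mean-variance trend. Others were the replicate number as a block, removal of a length trend (lowess, span 0.3), voom on recovered reads and each library left out. Voom was also run with TRPV3 replicate 1 left out, and with no other library left out. Chosen after seeing the data was a fit with TRPV3 replicate 1 and mock replicate 3 left out together. Named genes were the 10 genes, TRPV3, all other ERBB ligands and receptors, for each other list its called genes or otherwise up to 2 with separate groups and the smallest p, and the 4 genes closest to AREG. The 10 genes, lists, naming rule and other alternatives were chosen with earlier results of these data known. Python 3.11.15 with matplotlib 3.10.9 drew the figures.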

Additional observations from a re-analysis of the deposited data

How the results depend on the processing

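The number of the 10 genes that passed was 0 in every alternative run but one: it was 3 by voom on recovered reads with TRPV3 replicate 1 left out. AREG, EREG, HBEGF, TGFA and BTC kept a log2 fold change above 0, and ERBB2 and ERBB3 one below 0, in every alternative that tested them; HBEGF and BTC could not be tested under the filter of 5 FPKM. AREG ran from 0.32 to 0.59, EREG from 0.35 to 0.59, HBEGF from 0.40 to 0.67, ERBB2 from -0.29 to -0.11 and ERBB3 from -0.32 to -0.13.

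The sign of 3 genes turned in fits without TRPV3 replicate 1, though for ADAM17 not in all such fits. EGFR was 0.075 without it, 0.049 by voom without it and 0.0093 without it and mock replicate 3; it ran from -0.42 to 0.075 over single left-out libraries. ADAM17 ran from -0.25 to 0.036 over single left-out libraries. It was 0.036 without TRPV3 replicate 1, 0.015 by voom without that library and -0.025 without that library and mock replicate 3. ERRFI1 was 0.049 without TRPV3 replicate 1, 0.022 by voom without that library and 0.018 without that library and mock replicate 3. Without mock replicate 2 ERRFI1 was 0.012, and its range over single left-out libraries was -0.043 to 0.049. None of these genes passed.

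The genes with every TRPV3 library above numbered 3 to 5 over single left-out libraries and 6 without TRPV3 replicate 1 and mock replicate 3. The number was 5 without TRPV3 replicate 1, TGFA being added, and ERRFI1 by a near tie. Fewer libraries are easier to separate. The share of all tested genes was 9.49% with all libraries, 14.1% without TRPV3 replicate 1 and 19.2% without both. Under TPM scaling the genes with every TRPV3 library above were 2, EREG being lost, where 4.94% of all tested genes were above. Those with every TRPV3 library below were 2 with all libraries, where 5.39% of all tested genes were below. With the length trend removed the number was 1, where 7.31% of all tested genes were below. It stayed at 2 under TPM scaling and without both libraries, while the share of all tested genes was 10.2% and 18.9%. Of the surrounding lists, 0 to 1 genes passed over single left-out libraries, 1 without both libraries (0.0821% of all tested genes passed) and 4 by voom without TRPV3 replicate 1 (0.542%); the cause was not tested.

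Same-numbered mock and TRPV3 libraries did not deviate together (Pearson r of deviations from group means across genes -0.27, -0.039 and -0.17). No library correlated best with its own number. With 3 libraries a group, and TRPV3 replicate 1 apart by gene length, this cannot decide whether the numbers pair the libraries. With the replicate block 0 of the 10 genes passed and 3 of 12177 genes did, against 5 without it. Depth limits BTC, at 51 to 77 reads, and the EGF-family genes under 1 FPKM.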
